A study of Homo sapiens with 33 samples.

Results

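The genes of MHC class I antigen presentation were followed in cultures in which FOXL2, a transcription factor of ovarian supporting cells, was switched on during gonadal differentiation. Taken by gene symbol from a count table of 58735 genes, they are 9 genes, and each symbol had 1 row. They were the heavy chain genes HLA-B, HLA-C and HLA-E, the light chain gene B2M, the peptide transporter genes TAP1 and TAP2, the tapasin gene TAPBP and the immunoproteasome genes PSMB8 and PSMB9. Expression was measured by bulk poly-A RNA-seq in 33 libraries of the line H9-DDdCas9VP192-FOXL2, clone 24, derived from the human embryonic stem cell line H9. All cells, those of the uninduced groups included, carried a dCas9VP192 activator with a destabilising domain and guides to the FOXL2 promoter. Doxycycline (DOX) switches this activator on and trimethoprim (TMP) stabilises it. The 11 groups, of 3 libraries each, were cells at day 4 of differentiation, before induction, cells kept without DOX and TMP (CTRL) and taken on day 6 and on every other day up to day 14, and cells given DOX and TMP from day 4 (IND) and taken on the same 5 days. The line is 1 clone, and a group holds 3 wells of a single differentiation, so p-values cover the spread between wells only. IND differed from CTRL in both compounds as well as in FOXL2, and these cannot be told apart.

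MHC class I molecules carry peptides from proteins made inside the cell to the cell surface, where CD8 T cells and natural killer cells read them. The peptides are cut by the proteasome, whose inducible catalytic subunits such as PSMB8 and PSMB9 take the place of constitutive ones, are pumped into the endoplasmic reticulum by the TAP1 and TAP2 heterodimer, and are loaded with the help of tapasin onto a heavy chain paired with beta-2-microglobulin. Pluripotent cells are known for low class I expression, and interferons raise these genes together through factors such as IRF1 and the class I transactivator NLRC5.

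In GRCh38, 8 of the 9 genes lie in the MHC region of chromosome 6, and B2M lies at chr15:44711487-44718877. HLA-E (chr6:30489467-30494205), HLA-C (chr6:31268749-31272130) and HLA-B (chr6:31269491-31357188) belong to the class I region. TAP2 (chr6:32821833-32838780), PSMB8 (chr6:32840717-32844703), TAP1 (chr6:32845209-32853978) and PSMB9 (chr6:32844136-32859585) lie together, with the span of TAP1 inside that of PSMB9 and the span of PSMB8 overlapping it, and TAPBP is at chr6:33299694-33314387. The libraries were not directional. Reads of overlapping genes can therefore not be told apart by strand. The exonic length shared with other genes is 32.3% for TAP2, 20.6% for PSMB8, 18.9% for HLA-B, 9.49% for TAP1, 5.66% for PSMB9 and 1.40% for HLA-C. TAP2 shares it with AL669918.1 and HLA-B mostly with AL671883.2, which had 0 and 2 counts over all 33 libraries. PSMB8 and TAP1 share it with PSMB8-AS1, which reached at most 0.243 CPM (counts scaled to library size) in a library. How reads that fall on 2 genes were counted is not stated. These low counts therefore do not show that the overlapping genes were silent, and reads of shared exons may be missing from the members. PSMB8 and PSMB9, on opposite strands, also share 139 exonic bases, so reads there cannot be told apart between these 2 members. Class I heavy chain genes are near-identical over long stretches, so the split of reads between HLA-B and HLA-C is uncertain.

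Short stretches just upstream of the transcription start are shown because several of the members hold known interferon and class I control elements there. They come from RefSeq promoter windows of 250 bases (GRCh38.p14), which were matched for 8 of the 9 members in 10 windows, TAP1 and PSMB8 having 2 each. Each is given 5′ to 3′ on the strand of its gene, with the element in capitals. The first 4 hold the core of the interferon-stimulated response element, searched on both strands as GAAA, any 2 bases and GAAA. The last 2 hold a TGACG element and a CCAAT box (ATTGG on the other strand), parts of the class I enhancer.
B2M, chr15:44711366-44711395, + strand, outside annotated exons: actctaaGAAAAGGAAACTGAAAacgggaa
TAP1, chr6:32853816-32853845, - strand, in a coding exon of another TAP1 transcript: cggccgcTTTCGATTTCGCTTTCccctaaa
TAP2, chr6:32838778-32838807, - strand, in a noncoding exonic part of TAP2: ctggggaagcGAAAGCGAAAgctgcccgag
TAPBP, chr6:33314079-33314108, - strand, in a noncoding exonic part of TAPBP: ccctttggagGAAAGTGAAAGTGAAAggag
HLA-B, chr6:31357256-31357285, - strand, in an exon of the opposite-strand gene AL671883.2: TGACGcgtccccacttcccactcccATTGG
HLA-C, chr6:31272168-31272197, - strand, outside annotated exons: TGACGcgtccCCAATtcccactcccATTGG

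The counts by member that follow equal the counts over the 10 windows, since none of these motifs was in both windows of a gene. The interferon element was found in 4 of the 8 members, against 3.02% of 35116 RefSeq promoters of the same length. In B2M, TAP1 and TAPBP it matched at overlapping positions, in TAP1 on the other strand. TGACG was found in 6 of the 8 members and in 21.2% of all promoters. CCAAT was found in 5, with 32% of all promoters. An NF-kB site, searched as GGG, any 2 bases and TTTCC, was found in B2M, TAP1 and TAPBP and in 1.73% of all promoters. TTCNNNGAA, the STAT site, was found in PSMB8 and TAP1 and in 6.57% of all promoters. The forkhead core TAAACA, the family of FOXL2, was found in B2M alone and in 11% of all promoters. A match describes letters in a window and is no evidence of binding. PSMB9 and TAP1 start 488 bases apart on opposite strands.

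Total counts ran from 23940837 to 51912815 per library. As labelled, every one of the 15 IND libraries had FOXL2, at 147 to 577 CPM, while the other libraries did not pass 0.388 CPM. Among gonadal markers, GATA4 was at 49.3 CPM or more in every library while NR5A1 stayed at or below 0.562 CPM. IND replicate 2 of day 10 stood apart. It had the lowest total, its 7 pluripotent markers summed to 1984 CPM against 429 and 504 CPM in the other two wells, and it had 0 counts of PSMB9 where those wells had 81 and 72. That sum was mostly LIN28A, at 1812 CPM in this well. POU5F1 was at 1.04 CPM and NANOG at 0.259 CPM there, so the sum does not stand for all 7 markers. Day 10 log2 fold changes of the members tested on that day are therefore given with and without it. Other day 10 values, those of lists and markers among them, include it unless stated.

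Class I presentation genes were mostly higher in IND than in CTRL, and from day 8 on the log2 fold changes of PSMB8, PSMB9 and TAP1 were the largest of the members fitted. Over the 5 days, 29 of the 43 tests on the 9 genes passed an adjusted p of 0.05 in the direction of higher expression in IND (quasi-likelihood test of edgeR, Benjamini-Hochberg adjusted over all genes tested), and 0 passed in the other direction. Of all genes tested, 2.37%, 6.67%, 1.18%, 3.04% and 5.22% were lower in IND, in the order of days. With an unadjusted p under 0.05, and with DESeq2 or limma, the number of members lower in IND was also 0. By day, 3 of 8 tested members were upregulated at day 6, when 1.29% of all genes tested were. Day 8 had 8 of 9 (7.49% of all genes tested), and day 10 had 4 of 8 (0.856%). Day 12 had 8 of 9 (2.38%), followed by 6 of 9 on day 14 (3.21%). In bulk RNA, a change in the share of a cell type and a change in RNA per cell cannot be told apart.

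The median log2 fold change of the tested members was 0.76, 1.37, 1.29, 1.25 and 0.52 from day 6 to day 14, and that of all genes tested lay between -0.01 and 0.02. All 3 IND libraries were above all 3 CTRL libraries in 37 of the 45 pairs of member and day. By day this held for 6, 9, 7, 8 and 7 of the 9 members. Among all genes tested it held for 8.06%, 16.3%, 14.7%, 14.6% and 12.9%. For PSMB9 at days 8, 12 and 14 and PSMB8 at days 6 and 8, only the IND group had all 3 libraries over the filter on low counts. PSMB8 at day 8 also had 2 CTRL libraries over it. The others had 0, which fixes their direction. Without all these tests of PSMB8 and PSMB9, 24 of 38 tests passed. PSMB9 was not tested at days 6 and 10.

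**Figure D1:**
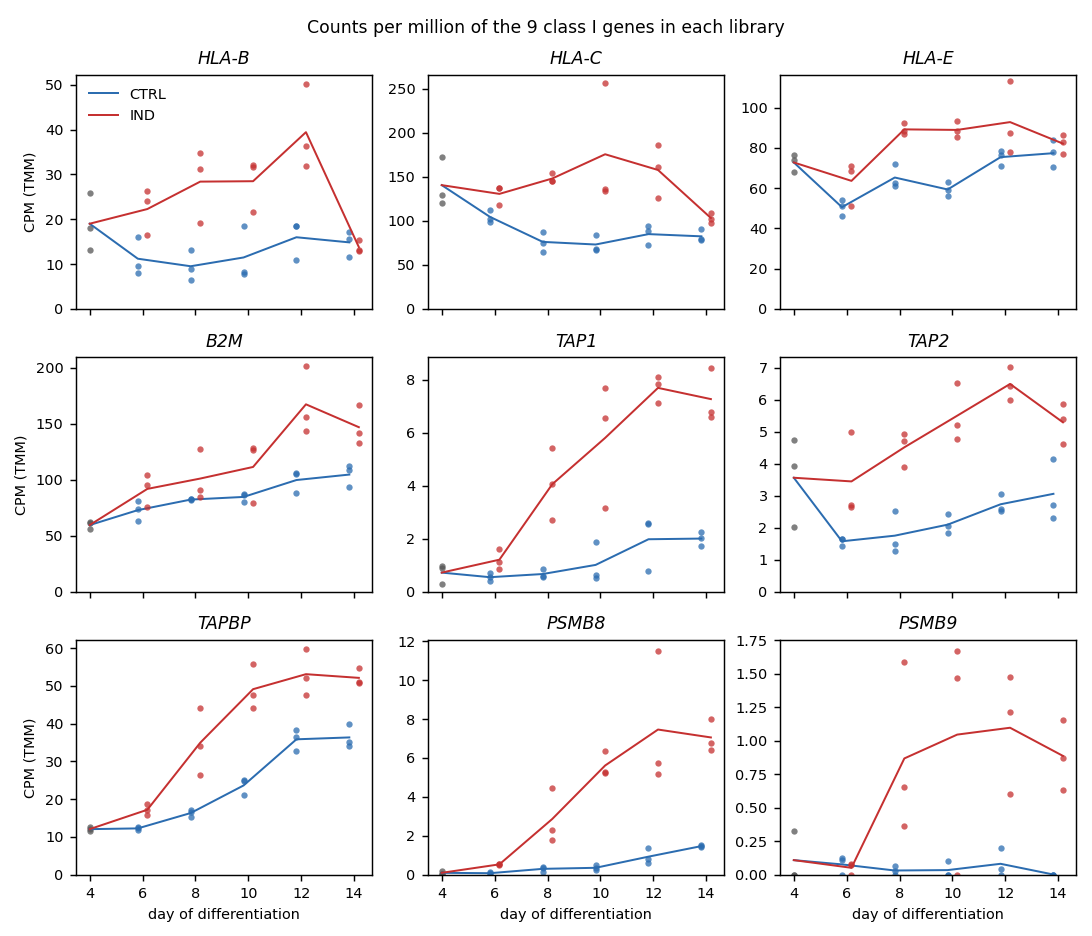
Expression of the 9 class I presentation genes by day of differentiation, in CPM with 1 panel per gene. Points are libraries (3 per group), lines join group means, and day 4 is grey, CTRL blue and IND red. PSMB8 and TAP1 lie near 0 at day 4 and separate by condition on every day, most visibly from day 8, whereas HLA-B of both conditions meets again at day 14.

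PSMB8 and PSMB9 encode the inducible subunits that replace PSMB5 and PSMB6 in the immunoproteasome. PSMB8 was barely detected at day 4, with 1, 1 and 6 counts. At day 6 it had 2, 1 and 5 counts in CTRL and 19, 23 and 23 in IND. At day 8 the CTRL libraries had 0.333, 0.144 and 0.401 CPM and the IND libraries 1.80, 2.30 and 4.48 CPM. Every IND well was above every CTRL well, as on all later days. On day 10 CTRL was at 0.241, 0.320 and 0.479 CPM and IND at 5.25, 6.34 and 5.23 CPM. At day 12 the values were 0.602, 1.34 and 0.816 CPM in CTRL and 11.5, 5.16 and 5.73 CPM in IND, with replicate 1 of IND the highest. At day 14 they were 1.42, 1.51 and 1.46 CPM in CTRL and 7.98, 6.79 and 6.39 CPM in IND. The IND wells of day 8 were already above the CTRL wells of day 14.

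PSMB8 was upregulated on all 5 days. From day 6 to day 14 its log2 fold change in IND against CTRL was 2.86 ± 0.656 (SE, adjusted p = 0.0195, edgeR), 3.30 ± 0.448 (adjusted p = 0.000817), 4.01 ± 0.354 (adjusted p = 0.00673), 3.03 ± 0.407 (adjusted p = 0.00516) and 2.27 ± 0.211 (adjusted p = 2.19e-05). The depth-scaled count ratio was 7.36 at day 6, with a 95% exact interval of 3.52 to 17.8, and 15.7 at day 10 (11.8 to 21.3). At day 14 it was 4.76 (3.96 to 5.76). These intervals cover counting error only. The day 6 call was lost without CTRL replicate 1 (adjusted p = 0.104), CTRL replicate 2 (0.0735), IND replicate 2 (0.101) or IND replicate 3 (0.0700), and without CTRL replicate 3 the log2 fold change was 3.53. The day 10 call was lost without CTRL replicate 1 (0.0666) or CTRL replicate 2 (0.0679). Without IND replicate 2 the day 10 value was 3.90 (adjusted p = 5.76e-07).

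PSMB9 rested on few reads. Its counts were 0, 0 and 10 at day 4, 4, 4 and 0 in CTRL at day 6, and 3, 3 and 0 in IND at day 6. In CTRL it stayed at 3, 1 and 0 counts at day 8, 0, 0 and 5 at day 10, 0, 9 and 2 at day 12, and 0, 0 and 0 at day 14. In IND it had 14, 26 and 78 counts at day 8, 81, 0 and 72 at day 10, 66, 28 and 36 at day 12, and 38, 26 and 45 at day 14. IND wells were thus above all CTRL wells at days 8, 12 and 14. At day 6 both conditions were near the limit of detection. The count ratio of IND to CTRL was 28.7 at day 8 (95% exact interval 10.9 to 107), 36.5 at day 10 (15.3 to 114) and 14.2 at day 12 (7.69 to 29.2). With 0 counts in CTRL at day 14, IND was at least 8.66-fold higher, taking 3 counts per library as the limit.

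PSMB9 was upregulated at day 8 (log2 fold change 4.67 ± 0.828, adjusted p = 0.00370, edgeR), at day 12 (3.78 ± 0.816, adjusted p = 0.0328) and at day 14 (adjusted p = 0.000598). The day 12 call was lost without CTRL replicate 1 (3.16, adjusted p = 0.0692), CTRL replicate 3 (0.134) or IND replicate 3 (0.0727), and without CTRL replicate 2 the value was 5.57. At day 8 the value was 5.81 without CTRL replicate 1 and 3.88 without IND replicate 3.

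The constitutive counterparts PSMB5, PSMB6 and PSMB7 had log2 fold changes between -0.26 and 0.39 in IND against CTRL. They were called on no day by edgeR, DESeq2 or limma, and none had an unadjusted p under 0.05. Per kilobase of gene, there were 0.0217 PSMB8 for every 100 PSMB5 at day 4. In CTRL this ratio went from 0.0224 at day 6 through 0.0976, 0.125 and 0.323 to 0.567 at day 14, and in IND from 0.163 through 0.888, 1.79 and 2.09 to 2.76. The difference on the log2 scale was 2.87, 3.19, 3.84, 2.69 and 2.28 from day 6 to day 14, higher in 9 of 9 pairs of wells each day. The exact two-sided permutation p was 0.1, the smallest that 3 against 3 wells allow.

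For PSMB9 against PSMB6 the difference was -0.31 on day 6 (exact permutation p = 0.6), and 4.54, 4.26, 4.11 and 5.84 on the following days. The exact permutation p was 0.2 at day 10 and 0.1 on the other 3. PSMB10, which replaces PSMB7, differed less from its counterpart. Its log2 ratio to PSMB7 was higher in IND by 0.09, 1.22, 1.29, 1.30 and 0.38 from day 6 to day 14, and on its own PSMB10 was called at day 12 only (log2 fold change 1.51, adjusted p = 0.0208, edgeR). Even in IND the transcripts of the inducible subunits were a small part of the constitutive ones.

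**Figure D2:**
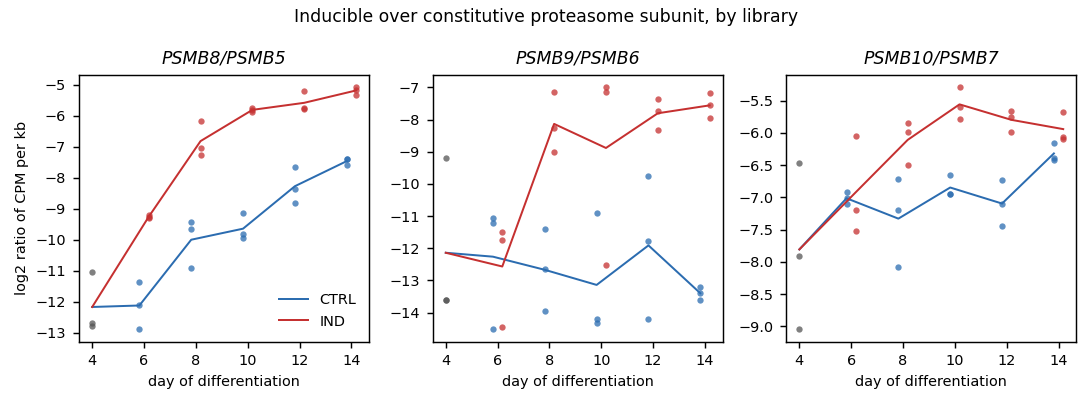
Log2 ratio of each inducible proteasome subunit to its constitutive counterpart (CPM per kilobase, 0.5 counts added) by day, with 1 panel per pair. Points are libraries, CTRL in blue, IND in red and day 4 in grey. PSMB8 to PSMB5 separates completely on all 5 days, and PSMB9 to PSMB6 from day 8 except for 1 IND well at day 10. PSMB10 to PSMB7 overlaps on day 6 and separates from day 8 by the smallest distance.

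TAP1 and TAP2 form the peptide transporter, and tapasin holds empty class I molecules next to it. TAP1 had 0.981, 0.277 and 0.905 CPM at day 4. At day 6 it was at 0.544, 0.691 and 0.408 CPM in CTRL and 1.12, 0.872 and 1.63 CPM in IND, and at day 8 at 0.599, 0.842 and 0.561 CPM in CTRL and 2.70, 4.07 and 5.41 CPM in IND. The conditions did not overlap on any day, but CTRL wells spread widely at days 10 and 12. On day 10 CTRL was at 0.502, 0.639 and 1.89 CPM and IND at 7.70, 3.15 and 6.58 CPM. At day 12 CTRL was at 0.771, 2.57 and 2.60 CPM and IND at 7.86, 8.12 and 7.11 CPM, and at day 14 CTRL was at 2.27, 1.72 and 2.03 CPM and IND at 6.61, 8.44 and 6.78 CPM. IND replicate 2 was the lowest IND well at day 10 and the highest at day 14.

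TAP1 was upregulated at day 8 (log2 fold change 2.61 ± 0.307, adjusted p = 0.000261, edgeR), day 12 (1.97 ± 0.395, adjusted p = 0.0246) and day 14 (1.86 ± 0.211, adjusted p = 0.000114). It did not pass at day 6 (1.16 ± 0.400, adjusted p = 0.148) or day 10 (2.52 ± 0.611, adjusted p = 0.110). Without IND replicate 2 the day 10 value was 2.80 (adjusted p = 0.0185). The day 12 call was lost without CTRL replicate 2 (adjusted p = 0.0586), CTRL replicate 3 (0.0598), IND replicate 1 (0.0670) or IND replicate 2 (0.0614).

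TAP2 stood at 3.93, 2.01 and 4.75 CPM at day 4. At day 6 CTRL had 1.42, 1.65 and 1.66 CPM and IND 4.98, 2.71 and 2.65 CPM, and at day 8 CTRL had 2.51, 1.49 and 1.26 CPM and IND 4.70, 3.90 and 4.94 CPM. IND was again above CTRL in every pair of wells, on these and on later days. At day 10 the values were 2.05, 1.83 and 2.41 CPM in CTRL and 4.78, 6.52 and 5.21 CPM in IND, and at day 12 they were 3.07, 2.60 and 2.53 CPM and 7.04, 6.01 and 6.44 CPM. At day 14 they were 4.14, 2.32 and 2.72 CPM and 5.88, 4.62 and 5.38 CPM. The gap was narrowest at day 14.

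TAP2 was upregulated from day 6 to day 12, with log2 fold changes of 1.14 ± 0.286 (adjusted p = 0.0336, edgeR), 1.37 ± 0.264 (adjusted p = 0.00568), 1.39 ± 0.251 (adjusted p = 0.0481) and 1.25 ± 0.186 (adjusted p = 0.00694). At day 14 it was 0.78 ± 0.241 (adjusted p = 0.0640), and 0.0276 without CTRL replicate 1. The day 6 call was lost when any 1 of the wells but IND replicate 3 was left out (adjusted p = 0.0538 to 0.159), and the day 10 call when any 1 but IND replicate 2 was (0.113 to 0.300). Without IND replicate 2 the day 10 value was 1.25 (adjusted p = 0.000490).

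TAPBP started at 11.4, 12.7 and 12.0 CPM at day 4. At day 6 CTRL had 12.7, 11.7 and 12.2 CPM and IND 18.6, 17.0 and 15.9 CPM, and at day 8 CTRL had 17.1, 16.5 and 15.3 CPM and IND 26.4, 34.2 and 44.2 CPM. The wells of one condition lay close together except in IND at day 8. At day 10 CTRL had 25.1, 21.0 and 24.8 CPM and IND 47.5, 55.7 and 44.1 CPM. At day 12 CTRL had 32.8, 36.5 and 38.3 CPM and IND 59.7, 47.6 and 52.0 CPM, and at day 14 CTRL had 39.9, 34.1 and 35.0 CPM and IND 50.6, 54.7 and 51.1 CPM. The conditions did not overlap on any day.

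TAPBP was also upregulated on all 5 days. The log2 fold changes were 0.51 ± 0.135 (adjusted p = 0.0468, edgeR), 1.11 ± 0.161 (adjusted p = 0.00183), 1.06 ± 0.149 (adjusted p = 0.0231), 0.57 ± 0.130 (adjusted p = 0.0398) and 0.52 ± 0.0940 (adjusted p = 0.00314) in the order of days. Leaving out any 1 well ended the day 6 call (adjusted p = 0.0653 to 0.185). The day 10 call ended without any 1 well but IND replicate 2 (0.0746 to 0.162), and the day 12 call without any 1 well but IND replicate 1 (0.0555 to 0.186). Without IND replicate 2 the day 10 value was 0.95 (adjusted p = 9.47e-06).

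Of the heavy chains, HLA-B and HLA-C present peptides to CD8 T cells, and HLA-E is mainly a ligand of natural killer cell receptors. HLA-C had 129, 120 and 172 CPM at day 4. At day 6 CTRL was at 113, 98.7 and 102 CPM and IND at 118, 137 and 137 CPM, and at day 8 CTRL was at 65.0, 87.7 and 75.3 CPM and IND at 145, 154 and 145 CPM. The day 8 wells of IND lay within the range of day 4 and those of CTRL below it. At day 10 CTRL was at 68.3, 66.4 and 84.4 CPM and IND at 134, 256 and 136 CPM, the second being the well that stood apart. At day 12 CTRL was at 72.1, 88.8 and 93.6 CPM and IND at 186, 161 and 126 CPM, and at day 14 CTRL was at 79.1, 90.2 and 77.7 CPM and IND at 102, 109 and 97.9 CPM. There was no overlap on any day.

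HLA-C was upregulated at day 8 (log2 fold change 0.97 ± 0.0981, adjusted p = 0.000107, edgeR), day 12 (0.90 ± 0.166, adjusted p = 0.0179) and day 14 (0.33 ± 0.0870, adjusted p = 0.0308). At day 6 the value was 0.34 ± 0.10 (adjusted p = 0.0792). It passed there without CTRL replicate 1 (0.0409) or IND replicate 1 (0.0434). At day 10 it was 1.27 ± 0.284 (adjusted p = 0.0898) over all wells and 0.88 (adjusted p = 5.29e-05) without IND replicate 2. The day 12 call was lost without any 1 of the CTRL wells or IND replicate 2 (adjusted p = 0.0537 to 0.0807), and the day 14 call without any 1 well but CTRL replicate 2 (0.0537 to 0.130).

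HLA-B was at 18.0, 25.8 and 13.2 CPM at day 4. At day 6 CTRL was at 9.52, 16.1 and 7.98 CPM and IND at 16.5, 24.1 and 26.2 CPM, and at day 8 CTRL was at 8.92, 13.2 and 6.42 CPM and IND at 34.7, 31.3 and 19.2 CPM. Its wells spread widely, but the conditions stayed apart up to day 12. At day 10 CTRL was at 8.23, 7.69 and 18.5 CPM and IND at 21.6, 32.1 and 31.7 CPM. At day 12 CTRL was at 10.9, 18.6 and 18.4 CPM and IND at 50.1, 36.3 and 31.8 CPM, and at day 14 CTRL was at 15.7, 17.2 and 11.6 CPM and IND at 13.0, 15.3 and 13.1 CPM. The day 14 groups overlapped.

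HLA-B was upregulated at day 8 (log2 fold change 1.59 ± 0.331, adjusted p = 0.0281, edgeR) and day 12 (1.31 ± 0.241, adjusted p = 0.0176). It did not pass at day 6 (1.01 ± 0.283, adjusted p = 0.120), day 10 (1.32 ± 0.380, adjusted p = 0.164) or day 14 (-0.10 ± 0.154, adjusted p = 0.764). At day 6 it passed without CTRL replicate 2 (0.000406) or IND replicate 1 (0.0131). The day 8 call was lost without CTRL replicate 1 (0.103), CTRL replicate 3 (0.0514), IND replicate 1 (0.0713) or IND replicate 2 (0.0966), and the day 12 call without CTRL replicate 3 (0.0538). At day 10 it did not pass without IND replicate 2 either (1.21, adjusted p = 0.255).

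HLA-E was upregulated on 2 days. It was at 74.0, 76.4 and 67.9 CPM at day 4, and at day 8 at 60.9, 72.2 and 62.7 CPM in CTRL and 88.3, 87.1 and 92.3 CPM in IND. On day 10 CTRL was at 59.1, 55.9 and 63.0 CPM and IND at 93.2, 85.3 and 88.3 CPM. These were the days without overlap and with a call. The log2 fold change was 0.46 ± 0.0784 at day 8 (adjusted p = 0.00259, edgeR) and 0.59 ± 0.104 at day 10 (adjusted p = 0.0459), where the call was lost without any 1 well but IND replicate 2 (0.155 to 0.341). Without IND replicate 2 it was 0.61 (adjusted p = 4.23e-05).

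On the other days HLA-E overlapped between conditions. It was at 51.1, 54.2 and 46.2 CPM in CTRL and 51.3, 68.3 and 71.2 CPM in IND at day 6 (log2 fold change 0.35, adjusted p = 0.167, and 0.0238 without IND replicate 1). At day 12 it was at 71.1, 78.5 and 76.6 CPM in CTRL and 113, 87.6 and 77.7 CPM in IND (0.30, adjusted p = 0.308). At day 14 it was at 70.4, 83.8 and 78.0 CPM in CTRL and 82.9, 86.3 and 77.2 CPM in IND (0.09, adjusted p = 0.617).

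B2M encodes the light chain that all class I molecules share. It was at 61.0, 55.7 and 61.9 CPM at day 4 and separated late by condition. At day 6 CTRL was at 63.5, 73.8 and 81.3 CPM and IND at 104, 95.6 and 76.0 CPM, and at day 8 CTRL was at 82.7, 81.5 and 82.6 CPM and IND at 84.9, 90.5 and 128 CPM. The day 6 groups overlapped, and at day 8 the lowest IND well was just above CTRL. At day 10 CTRL was at 80.5, 86.4 and 87.0 CPM and IND at 128, 79.2 and 127 CPM, replicate 2 lying below CTRL. At day 12 CTRL was at 88.2, 105 and 106 CPM and IND at 202, 144 and 156 CPM, and at day 14 CTRL was at 109, 93.4 and 112 CPM and IND at 142, 132 and 167 CPM.

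B2M was upregulated at day 12 (log2 fold change 0.75 ± 0.151, adjusted p = 0.0252, edgeR) and day 14 (0.49 ± 0.104, adjusted p = 0.00860). It was 0.35 ± 0.122 at day 6 (adjusted p = 0.152, and 0.0396 without IND replicate 3), 0.31 ± 0.135 at day 8 (adjusted p = 0.172) and 0.40 ± 0.192 at day 10 (adjusted p = 0.392). Without IND replicate 2 the day 10 value was 0.59 (adjusted p = 2.36e-05). The day 12 call was lost without CTRL replicate 1 (0.120), CTRL replicate 2 (0.0845) or CTRL replicate 3 (0.0889), and the day 14 call without IND replicate 3 (0.0543).

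**Figure D3:**
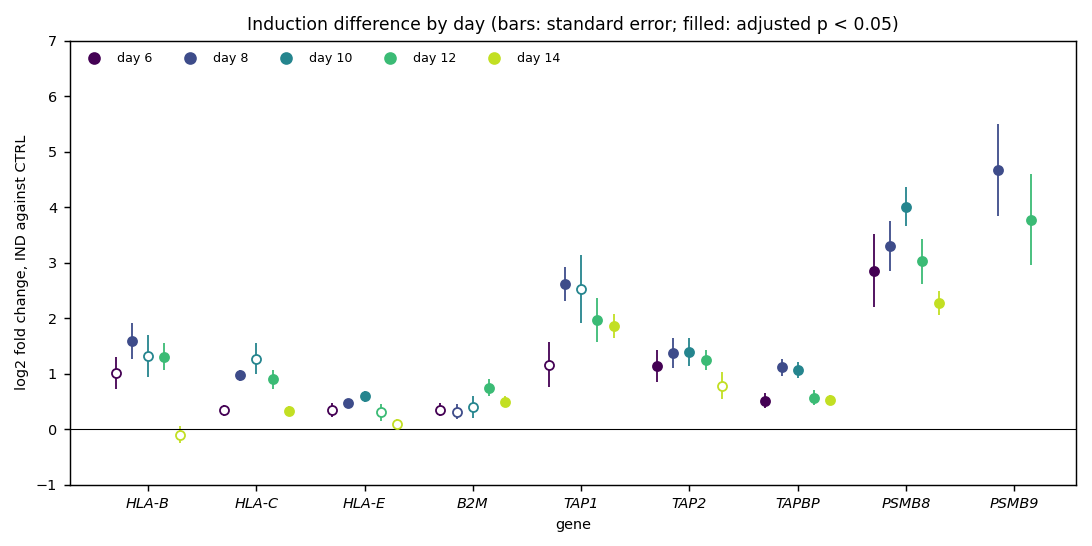
Log2 fold change of IND against CTRL for the 9 genes along the horizontal axis, with 1 coloured point for each day and bars of 1 standard error. Filled points passed an adjusted p of 0.05 (edgeR) and open points did not. PSMB9 is drawn at days 8 and 12, the days with a fitted value that does not rest on an empty group. PSMB8 is filled on all 5 days between 2.27 and 4.01, and HLA-B and HLA-E end near 0 at day 14.

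Of the 29 calls, 13 held with each well left out in turn. These were 7 at day 8, 2 at day 12 (TAP2 and PSMB8) and 4 at day 14 (TAP1, TAPBP, PSMB8 and PSMB9). Among these 13 are PSMB8 at day 8 and PSMB9 at days 8 and 14. For these, only the IND group had all its libraries over the filter on low counts. The direction of PSMB9 was thus fixed, while PSMB8 also had 2 CTRL libraries over the filter. At day 10, without IND replicate 2, 7 of the 8 members other than PSMB9 passed in place of 4, all but HLA-B, when 8.74% of all genes tested were higher. PSMB9 is not counted here because that well was its only IND well with 0 counts and it passed the filter through the remaining IND wells alone. The change of the IND effect between days was tested with an interaction of day and condition over 30 libraries. No member passed (edgeR, adjusted p = 0.0756 for HLA-C and 0.117 for TAPBP, the lowest values), when 2.38% of 22442 genes did. With an unadjusted p under 0.05 there were 5 members (HLA-B, HLA-C, TAPBP, PSMB8 and PSMB9). DESeq2 called 3 (HLA-B, HLA-C and TAPBP) and limma 1 (PSMB8), so whether the IND difference of HLA-B changed with the day depended on the tool.

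Levels were compared between genes in CPM per kilobase of gene. The length used was that of all annotated exons, 6079 bases for B2M and 2507 for HLA-C. It need not be that of the transcripts present, so the order between genes is uncertain. In plain CPM, B2M was below HLA-C at day 4 (59.5 and 140 CPM) and above it in IND at day 14 (147 and 103 CPM). Per kilobase, the order at day 4 was HLA-C (56.0), HLA-E (24.5), B2M (9.79), HLA-B (6.23), TAPBP (2.38), TAP2 (0.557), TAP1 (0.150), PSMB9 (0.0351) and PSMB8 (0.0295). At day 14 in IND it was HLA-C (41.1), HLA-E (27.6), B2M (24.2), TAPBP (10.3), HLA-B (4.52), PSMB8 (2.35), TAP1 (1.51), TAP2 (0.829) and PSMB9 (0.289). TAP1, TAP2, PSMB8 and PSMB9 thus stood far below the heavy and light chains at day 4, and in IND at day 14 the means of PSMB8 and TAP1 were above that of TAP2. In CTRL at day 14 PSMB8 (0.488), TAP2 (0.479) and TAP1 (0.418) were nearly level.

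Across the 11 groups, in CPM, the highest mean was IND at day 12 for 8 of the 9 genes. The exception was HLA-C, highest in IND at day 10 with 176 CPM, or 135 CPM over replicates 1 and 3. Over those replicates PSMB9 averaged 1.57 CPM, above its mean in IND at day 12, so that PSMB9 was then the exception in place of HLA-C (158 CPM at day 12). The lowest mean fell in CTRL at day 6 for HLA-E (50.5 CPM), TAP1 (0.548 CPM), TAP2 (1.58 CPM) and PSMB8 (0.0691 CPM), and at day 4 for B2M (59.5 CPM) and TAPBP (12.0 CPM). For PSMB8, ordered by mean, no neighbouring groups overlapped from IND at day 14 down to CTRL at day 10. For HLA-B every group overlapped with its neighbour in the order.

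The cells before induction allow a second pair of comparisons. CTRL and IND of each day were each set against day 4. Both use the same 3 day 4 libraries, so their values are given side by side. In CTRL, 0 of 7 members rose and 2 fell by day 6 by edgeR (11.0% and 10.6% of all genes tested rose and fell). At an unadjusted p under 0.05, 1 was higher there, and by DESeq2 or limma 0. On day 8 there were 2 and 2 of 7 (18.1% and 18.9%), and on day 10 again 2 and 2 of 7 (23.1% and 22.0%). They were 3 and 1 of 8 on day 12 (24.4% and 23.8%) and 4 and 1 of 8 on day 14 (24.6% and 22.9%). In IND, 3 of 8 rose by day 6 (13.1%), then 5 of 9 (18.7%), 4 of 8 (11.9%), 6 of 9 (20.5%) and 5 of 9 (25.8%). Only on day 14 did a member fall in IND, HLA-C, and the shares of all genes that fell were 13.5%, 17.0%, 9.79%, 16.6% and 24.8%. On the 4 earlier days 0 members were lower in IND at an unadjusted p under 0.05 or by DESeq2 or limma, and on day 14 DESeq2 called 1 and limma 0. For TAP1, PSMB8 and PSMB9, only the later group had all 3 libraries over the filter here. Of the day 4 libraries, 2 were over it for TAP1, 0 for PSMB8 and at most 1 for PSMB9. Without these genes 8 rose and 8 fell of 30 tests in CTRL, and 12 rose and 1 fell of 30 in IND.

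B2M and TAPBP climbed in both conditions. In CTRL the log2 fold change of B2M from day 4 was 0.29 at day 6 (adjusted p = 0.138, edgeR) and went from 0.47 at day 8 to 0.82 at day 14 (adjusted p = 0.00293 and 0.000264), and in IND it went from 0.64 at day 6 to 1.48 at day 12 and 1.30 at day 14 (adjusted p = 0.00660, 9.15e-05 and 1.26e-05). TAPBP reached 1.60 in CTRL (adjusted p = 1.36e-05) and 2.11 in IND (adjusted p = 7.08e-07) at day 14. PSMB8 was called in CTRL at day 12 (3.29, adjusted p = 0.00440) and day 14 (3.96, adjusted p = 0.000641), and in IND at all 5 days, from 2.50 at day 6 (adjusted p = 0.0289) to 6.30 at day 12 (adjusted p = 2.23e-05). Without day 4 replicate 3, which held 6 of the 8 counts at day 4, these were 4.59 and 5.22 in CTRL and 3.76 and 7.57 in IND, and the IND call at day 6 was lost without any 1 of the other 5 wells (0.0749 to 0.107).

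TAP1 rose from day 4 in CTRL at day 14 (log2 fold change 1.48, adjusted p = 0.0244, edgeR), a call lost without CTRL replicate 1 (0.0874) or CTRL replicate 3 (0.0658), and in IND from day 8 on (2.50, adjusted p = 0.00253, to 3.40 at day 12, adjusted p = 0.000108). PSMB9 rose in IND at day 12 (3.25, adjusted p = 0.0224) and day 14 (2.94, adjusted p = 0.0269), calls that were lost without day 4 replicate 1 (0.0638 and 0.0760) and without some of the IND wells. Without day 4 replicate 3, which held all 10 counts of day 4, the fitted values were 8.28 and 8.02 against a group at 0 counts and are no measure of size. The TAPBP call in IND at day 6 (0.52, adjusted p = 0.0239) and the B2M call in IND at day 10 (0.90, adjusted p = 0.0222) were likewise lost on leaving out 1 well, at the most with adjusted p = 0.0982 and 0.0979, both without day 4 replicate 1.

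HLA-B, HLA-C, HLA-E and TAP2 each fell from day 4 in CTRL on at least 1 day. From day 8 to day 14 the log2 fold changes of HLA-C from day 4 were -0.88 (adjusted p = 0.00238, edgeR), -0.93 (adjusted p = 0.00110), -0.73 (adjusted p = 0.00435) and -0.76 (adjusted p = 0.00202). In IND it was called at day 14 only (-0.45, adjusted p = 0.0186), and this was lost without IND replicate 1 (0.0675) or IND replicate 3 (0.0833). HLA-B fell in CTRL by 1.00 at day 8 (adjusted p = 0.0295), HLA-E by 0.53 at day 6 (adjusted p = 0.0101) and by 0.28 at day 10 (adjusted p = 0.0385), and TAP2 by 1.18 at day 6 (adjusted p = 0.0287). These 4 calls were each lost on leaving out day 4 replicate 1 (0.0730, 0.0542, 0.133 and 0.0963) and some other wells. In IND, HLA-B rose at day 12 (1.04, adjusted p = 0.00975), HLA-E rose at day 8 (0.30, adjusted p = 0.0385, and 0.109 without day 4 replicate 1), and TAP2 was not called (0.86 at day 12, adjusted p = 0.0563).

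**Figure D4:**
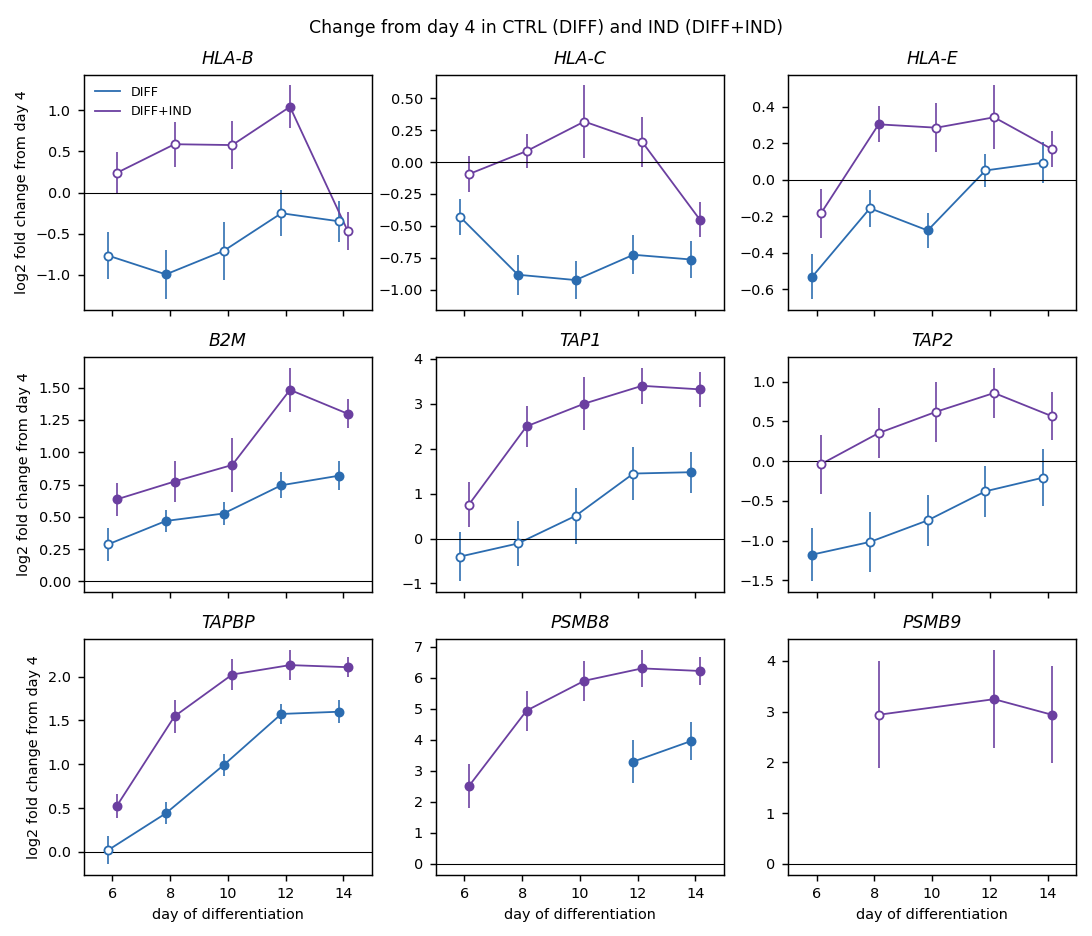
Log2 fold change from day 4 by day, with 1 panel per gene and bars of 1 standard error, for CTRL (DIFF, blue) and IND (DIFF+IND, purple). Filled points passed an adjusted p of 0.05. Both use the same 3 day 4 libraries. B2M and TAPBP climb in both conditions, whereas HLA-C lies below 0 in CTRL at every day and between -0.09 and 0.32 in IND up to day 12.

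Other genes of the pathway were taken from lists that were counted whole, and genes behind counts of 5 or fewer were named after their values were seen. Of all genes tested, edgeR called 1.29%, 7.49%, 0.856%, 2.38% and 3.21% higher in IND from day 6 to day 14. It called 2.37%, 6.67%, 1.18%, 3.04% and 5.22% lower. These shares stand beside every list below. Of 9 other class I heavy chain genes, 2 were upregulated in IND, both on day 8 (of 8 tested), FCGRT, the neonatal Fc receptor gene, among them. DESeq2 and limma also called 2 on that day, and DESeq2 called 1 on day 10 and 1 on day 12. The list medians were 0.31, 0.52, 0.72, 0.40 and 0.00 (log2 fold change) from day 6 to day 14, and an unadjusted p under 0.05 was reached by 2, 2, 3, 3 and 0 of them. Of 10 genes of the loading complex and of peptide trimming, ERAP1, which trims peptides, and B4GALT1 were upregulated at day 8 alone, with medians from 0.00 to 0.20 and 0 to 4 genes at an unadjusted p under 0.05. DESeq2 called 2 on day 8, 1 on day 10 and 1 on day 14. Of 16 other proteasome genes, PSMB10 at day 12 was the only call, with medians from -0.06 to 0.34 and 1 to 3 genes higher at an unadjusted p under 0.05. DESeq2 called 1 on day 8 and 2 on day 12.

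Among 25 regulators of class I transcription, 24 were tested on days 6, 8 and 10 and all on days 12 and 14. By edgeR, 2 were higher in IND on day 6 (1.29% of all genes tested) and 3 on day 8 (7.49%). There were 2 on day 12 (2.38%) and 4 on day 14 (3.21%). The number was 0 on day 10, where DESeq2 called 2 and 4 had an unadjusted p under 0.05. STAT3 was lower on days 12 and 14. IRF1, a factor known to bind the interferon-stimulated response element, though binding was not measured here, was called on 4 days. Its means in CTRL and IND were 7.43 and 13.3 CPM on day 6 and 7.46 and 19.2 CPM on day 14. The log2 fold changes were 0.85 (adjusted p = 0.0117, edgeR), 1.23 (adjusted p = 0.0232), 1.15 (adjusted p = 0.244), 1.30 (adjusted p = 0.0269) and 1.37 (adjusted p = 6.57e-05) in the order of days. NLRC5 was at or below 0.454 CPM in every mean of CTRL and IND and was not called where tested (-0.56 at day 12, adjusted p = 0.506, and -0.05 at day 14, adjusted p = 0.974).

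Of 21 interferon ligands, receptors and signalling genes, 13 were tested. The 8 ligand genes were not, and their means were at most 0.153 CPM in CTRL and IND. TLR3, a sensor of double-stranded RNA that interferon is known to raise, was called on days 6, 8, 12 and 14, with log2 fold changes of 4.59 (adjusted p = 4.68e-05, edgeR), 5.22 (adjusted p = 0.000107), 2.50 (adjusted p = 0.00727) and 3.22 (adjusted p = 0.000729). USP18 was higher on days 8 and 12, and SOCS3 lower on days 12 and 14. Of 14 genes of MHC class II presentation, 5 were higher by edgeR, all on day 8 (HLA-DRB5, HLA-DPA1, HLA-DQB1, HLA-DMB and HLA-DOA). On that day 12 of the 14 were tested, and 7.49% of all genes tested were higher. DESeq2 called 2, 5, 5, 2 and 0 higher from day 6 to day 14. The list medians were 0.54, 0.92, 1.13, 0.80 and 0.18 (log2 fold change) on these days. An unadjusted p under 0.05 (edgeR) was reached by 4, 9, 6, 8 and 1 that were higher and by 1, 1, 0, 0 and 0 that were lower. CD74, the invariant chain, was lower in IND on day 6 (55.0 against 79.4 CPM) and day 8 (47.2 against 68.1 CPM).

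The genes whose pattern was most like that of the 9 members over the 11 group means were, out of 14223 compared, GPAT3 (r = 0.984), GPC4 (0.981), GRAMD2B (0.977), APBA1 (0.970), KCNJ11 (0.964), PARP12 (0.956), C7 (0.955), GSDMD (0.950), EFEMP1 (0.947) and GAS8 (0.945). None of these 10 is on chromosome 6. Among the members themselves, r over the 11 means ran from 0.214 for HLA-C with TAPBP to 0.983 for TAP1 with PSMB8, with a median of 0.744 over 36 pairs. The points share day and condition, so these values describe the likeness of profiles.

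Markers of other cell types moved with the same groups. The shares of all genes tested that were higher in IND were 1.29%, 7.49%, 0.856%, 2.38% and 3.21% from day 6 to day 14. Those lower were 2.37%, 6.67%, 1.18%, 3.04% and 5.22%. Of 7 endothelial markers, PECAM1, CDH5, TEK and EGFL7 were higher in IND on day 8, PECAM1 on day 10, and PECAM1 and CDH5 on day 12, while KDR was lower on day 6. From day 6 to day 14 their summed level was 175 to 211, 169 to 193, 144 to 165, 128 to 142 and 117 to 158 CPM in CTRL, and 167 to 177, 223 to 245, 144 to 231, 138 to 188 and 146 to 181 CPM in IND. The summed levels overlapped on days 6, 10, 12 and 14 and not on day 8. Of 7 neuronal markers, all tested, 3, 2, 4 and 6 were lower in IND from day 8 to day 14. Of 8 gonadal and coelomic markers, 6 to 8 of them tested, 2, 4, 3, 3 and 3 were lower from day 6 to day 14. By edgeR, pluripotent markers were lower on day 6 (1 of 6 tested), day 8 (2 of 6) and day 12 (1 of 6), and 0 were higher. DESeq2 called 1 higher on day 8. From day 6 to day 14 the mean of their summed level was 1123, 674, 390, 321 and 245 CPM in CTRL. In IND it was 1095, 801, 972, 391 and 200 CPM, and the wells of the conditions overlapped on each day. The part of these cell types in the class I values was not tested. Of 8 leukocyte markers, LCP1 was higher in IND on day 14 (10.7 against 6.40 CPM), and the other 7, PTPRC among them, stayed at or below 0.668 CPM in the 32 libraries other than IND replicate 2 of day 10.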

How the data were processed

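Per the labels and the study's methods, paired-end reads of 150 bp from poly-A libraries that were not directional were trimmed with fastp 0.23.2, aligned to GRCh38 with HISAT2 2.0.5 and counted per gene with featureCounts 1.5.0-p3. The authors deposited 1 table of raw read counts and 1 table of FPKM values for the same genes and libraries. The deposited counts were not normalized, and the deposited FPKM were these counts scaled to gene length and library total, up to a constant of 0.943 to 1.12 in each library. Gene names were those of GENCODE 29. Groups came from the sample labels, with 3 technical replicates of 1 biological replicate in each, and all 33 replicate pairs differed by more than sampling noise.

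Counts were filtered with filterByExpr, scaled by TMM and tested with edgeR 4.0.16 (quasi-likelihood, R 4.3.3) on the 6 libraries of each comparison, adjusted over all genes tested, with a threshold of 0.05. The interaction used the 30 CTRL and IND libraries. CPM were TMM-scaled over 33 libraries, and CPM per kilobase used the deposited gene length. Subunit ratios, with 0.5 counts added, were compared by an exact two-sided permutation test (scipy 1.17.1). Intervals of ratios are 95% exact and cover counting error, as does the limit of 3 counts per library, 0.0565 to 0.130 CPM at these depths. The code was tested on simulated data. Alternatives were DESeq2 1.42.0, limma 3.58.1 on log2(FPKM + 1), which understates changes of low genes, other scalings and filters, 1 fit over all libraries, a replicate block and leaving out each library.

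The members, gene lists and markers were chosen with earlier results of these data known. All 9 members were named in each comparison. Genes of the lists were counted whole and named with values when called on at least 3 days, when they are the constitutive counterpart of a member, or for NLRC5 and IRF1. Some genes of the lists enter the counts but are not reported here by name. The 10 most alike genes were those with the highest Pearson r to the mean z-score of the members, among genes whose log2 CPM averaged 1 or more.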

Additional observations from a re-analysis of the deposited data

How the results depend on the processing

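None of the 29 calls of IND against CTRL changed direction under any alternative. For PSMB9 at days 8, 12 and 14 and PSMB8 at day 6 the filter on low counts already fixed the direction. For PSMB8 at day 8 the filter favoured the direction seen. Calls kept were 29 of 29 with DESeq2 or RLE size factors, 28 of 29 with library totals alone, 25 of 29 in 1 fit over all 33 libraries, 26 of 29 with no filter on low counts, 25 of 25 with a mean of at least 50 counts and 15 of 28 with limma on log2(FPKM + 1). The labels give groups the same replicate numbers but do not say whether these pair the wells. Correlations of the deviations of same-numbered wells ran from -0.107 to 0.0781 over 15 pairs in this comparison. These values show no clear pairing but cannot exclude it. With a replicate block 23 of 29 calls were kept, and members called fell to 0 at day 10. Members called moved by over 1.5 times in IND against CTRL at day 6 (limma 0, no filter 6), day 10 (1 fit 8, DESeq2 7, limma 2), day 12 (limma 3) and day 14 (limma 3), in CTRL against day 4 at day 6 (DESeq2 4, limma 1, no filter 4, replicate block 4) and at day 14 (mean of at least 50 counts 3), and in IND against day 4 at day 6 (replicate block 1). For the interaction of day and condition they were 3 with DESeq2, 1 with limma and 3 with no filter. The cause was not tested, except that the mean filter leaves fewer members. The day 14 difference of PSMB9 to PSMB6 was 5.02 from the deposited FPKM. Library totals alone shifted the median of all genes by 0.134 to 0.195 (CTRL against day 4) and 0.185 to 0.247 (IND against day 4) on the log2 scale. There HLA-E and TAP1 in CTRL at day 8 became 0.0342 and 0.0818, and HLA-C, HLA-E and TAP2 in IND at day 6 became 0.11, 0.0192 and 0.16. With 1 library left out at a time, members called in IND against CTRL ran from 0 to 4 at day 6, 7 to 8 at day 8, 0 to 8 at day 10 (the 8 include PSMB9), 2 to 7 at day 12 and 4 to 6 at day 14, in CTRL against day 4 from 0 to 3, 2 to 5, 3 to 5, 4 to 5 and 4 to 6, in IND against day 4 from 1 to 3, 4 to 7, 3 to 5, 5 to 7 and 4 to 8, and for the interaction from 0 to 1 (HLA-C, without IND replicate 2 of day 10). Each such comparison has 5 libraries in place of 6. Values that changed sign were none of the calls. These ranges were -0.25 to 0.0116 for HLA-B in IND against CTRL at day 14, and, in CTRL against day 4, -0.0205 to 0.0604 for TAPBP at day 6, -0.48 to 0.18 and -0.31 to 0.84 for TAP1 at days 8 and 10, -0.44 to 0.0515 for HLA-B at day 12 and -0.48 to 0.0678 for TAP2 at day 14. In IND against day 4 they were -0.20 to 0.0629, -0.0175 to 0.25 and -0.0637 to 0.47 for HLA-C at days 6, 8 and 10 and -0.40 to 0.21 for TAP2 at day 6. The day 6 ratio differences ran from -1.44 to 0.64 for PSMB9 to PSMB6 and from -0.34 to 0.39 for PSMB10 to PSMB7. Depth limits PSMB9 throughout and PSMB8 up to CTRL at day 8, where single counts decide the ratios.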
